A study of Homo sapiens with 4 samples.

Results

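Sense-intronic transcripts are annotated noncoding RNAs that lie within a gene and are read from the same strand as it. The set described here holds the 194 sense-intronic rows with a mean of at least 1 TPM (a unit of RNA abundance that corrects for gene length and library total) over 4 libraries of MHCC-97H cells. They were taken from 914 sense-intronic rows among 33478 rows of the table, and 14038 rows of any biotype reached the same mean. Members were chosen by this mean TPM alone, so their level is a description. For each member the host is the protein-coding row on the same chromosome and strand whose start and end contain it, and where several did the shortest was taken. A host was found for 167 members, in 152 distinct genes. Of the other 27, 8 lie on chromosomes 21 and 22, whose protein-coding genes were not analysed here.

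MHCC-97H is a human hepatocellular carcinoma line with high metastatic capacity. The 4 libraries are 2 of cells with a control short hairpin RNA (shRNA; SH-NC in the labels) and 2 of cells labelled as UCK2 knockdown with an shRNA against UCK2 (SH-UCK2-B). UCK2, or uridine-cytidine kinase 2, is an enzyme of pyrimidine salvage, and the design asks which transcripts differ when it is targeted. The labels do not explain the letter B, which both UCK2 shRNA libraries share, and if it is a single hairpin its other effects cannot be told apart from those on UCK2. Separate cultures are not stated, and a p-value then reflects nothing beyond the spread of these libraries, which may be technical. The descriptions name another cell line number for control replicate 2 and UCK3 in place of UCK2 for UCK2 shRNA replicate 2.

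Introns are transcribed with the rest of a gene, spliced out as lariats, opened by the debranching enzyme and degraded in the nucleus. Stable RNA from within an intron can come from a promoter of its own, from early cleavage and polyadenylation of the host transcript, from a processed small RNA, or from unspliced host RNA. Counting by gene does not separate these sources, because reads of unspliced host RNA also fall on an intronic row.

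Among all libraries, the rows used here summed to 850379 and 850534 TPM for the controls, and to 676811 and 643063 TPM for the UCK2 shRNA libraries, replicates 1 and 2 in that order. Values as deposited are therefore relative to a part outside these rows of 15.0% and 14.9% in the controls and of 32.3% and 35.7% in the UCK2 shRNA libraries. The median log2 difference of all 14038 genes, UCK2 shRNA minus control on log2(TPM + 1), was -0.22 as deposited and -0.01 after median-ratio scaling of the libraries. Differences are given below on both scales. TPM of UCK2 itself was 135.7 and 93.6 for the controls, and 120.5 and 67.8 for those labelled UCK2 shRNA, so its groups overlap and the labels were not borne out at the level of UCK2 RNA. Hepatocyte markers were low (7 rows, none above 29.5 TPM, with ALB at 18.6 to 29.5 TPM), the hepatoma marker AFP stood at 10.5 to 16.2 TPM and SOX9 at 2.998 to 3.86 TPM, GPC3 and EPCAM stayed under 0.5 TPM, and the epithelial keratin KRT19 reached 130.3 to 267.5 TPM. None of 10 retina markers passed 1.702 TPM and none of 4 fibroblast and immune markers passed 1.16 TPM, with CD3E listed at 0 in all 4 libraries.

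The members are short genes inside large introns. Their median length was 917.5 bases, from 161 to 87298 bases. By identifier, 180 were found in GENCODE release 29 on GRCh38, 178 of them at the same position, and 175 are still typed sense-intronic there. The 5 typed otherwise were SNHG3, AC064853.2, RP11-1000B6.7, SNORA59B and CTD-2132N18.2. Of the 180, 82 have a single exon, 82 have 2 exons and 16 have 3 or more. Of the 156 pairs whose exons could be compared, 149 share no base with an annotated exon of the host, and 7 do. The largest such overlap was 664 bases, between RP11-510N19.5 and ELF3, an epithelial transcription factor. SNHG3 shares 242 bases with RCC1.

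Members were found along the whole length of their hosts. The median position was 48.5% of the way along the host. With each host divided into 3 equal stretches, 59 of 156 members lay in the first, 43 in the middle and 54 in the last. Against the longest protein-coding transcript that spans them, 147 of 153 members lay inside 1 intron, 48 of these in intron 1 and 23 in the last intron. The introns had a median length of 11710 bases. The nearest host exon was at a median of 1961 bases, from 10 to 324131 bases, and was within 1000 bases for 48 members. In 9 members an exon of a gene on the opposite strand overlaps, and since no source used here says whether counting used strand, reads of those members, such as RP11-73M18.7 and RP11-785H5.2, may include the opposite gene. In 4 members a small RNA lies inside: SNHG3 holds SNORA73A and SNORA73B, RP11-74C1.4 holds MIR554, and SNORD64 and SNORA59B are themselves named for small nucleolar RNAs.

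The annotated 3′ ends of 6 members show the kind of sequence counted here. They belong to the 2 members with the highest TPM and to 4 of those with the lowest p-values. Each is the end of the last exon of the longest annotated transcript of the gene, 5′ to 3′ on the strand of the member, from GENCODE release 29 on GRCh38. Capitals mark a poly(A) signal hexamer, AATAAA or ATTAAA, which directs cleavage and polyadenylation. AC068580.5 is printed from chr11:1763009-1763052 on the minus strand, RP11-417L19.6 from chr12:131934829-131934928 on the plus strand, PLCB1-IT1 from chr20:8249643-8249742 on the plus strand (its longest isoform, of 2 exons and 373 bases, which ends short of the gene's own end at 8256918), RP11-108K3.4 from chr15:51369036-51369110 on the plus strand, RP11-121A14.3 from chr9:124265710-124265809 on the plus strand and RP11-104L21.2 from chr1:167457383-167457482 on the minus strand.
AC068580.5: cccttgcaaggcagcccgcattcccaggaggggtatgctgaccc
RP11-417L19.6: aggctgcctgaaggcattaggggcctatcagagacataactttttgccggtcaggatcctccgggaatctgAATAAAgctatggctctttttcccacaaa
PLCB1-IT1: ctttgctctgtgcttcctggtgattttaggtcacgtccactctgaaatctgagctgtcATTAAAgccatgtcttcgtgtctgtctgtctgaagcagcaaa
RP11-108K3.4: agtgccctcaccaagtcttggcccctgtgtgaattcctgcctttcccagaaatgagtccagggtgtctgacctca
RP11-121A14.3: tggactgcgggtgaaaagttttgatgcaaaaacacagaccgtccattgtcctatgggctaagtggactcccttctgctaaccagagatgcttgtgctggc
RP11-104L21.2: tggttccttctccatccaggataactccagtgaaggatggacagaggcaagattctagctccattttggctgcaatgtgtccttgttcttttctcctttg

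The hexamer starts 29 bases before the annotated end of RP11-417L19.6 and 42 bases before the end of the isoform shown for PLCB1-IT1, and the other 4 ends hold neither form. Over the last 50 bases of the longest transcript of each row, read on its own strand, AATAAA was present in 70 of 180 members (38.9%). The share was 35.2% of 696 other sense-intronic rows and 35.5% of all 83129 transcripts typed protein-coding. The protein-coding share counts every annotated transcript and not the longest of each gene, so it is not a like comparison. With either AATAAA or ATTAAA the shares were 47.8%, 46.7% and 44.2%. A run of 10 A in the same window was found in 3.33% of members, 4.02% of the other sense-intronic rows and 1.31% of the protein-coding transcripts. The members' transcripts had a median GC content of 44.6% and a median length of 495 bases, against 43.3% and 562.5 bases for the other sense-intronic rows. Hexamer, length and GC content were therefore close to those of sense-intronic rows below the threshold, and these matches are descriptions of the annotation, not evidence of where the RNA of these cells ends.

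Most members were scarce. Their mean TPM ran from 1.01 to 75.0 with a median of 1.90, and 102 members were under 2 TPM, 62 between 2 and 5 TPM and 30 at 5 TPM or more. Just inside the threshold were CTD-3214K23.1 at 1.01, AC064853.2 at 1.02 and a member in POU6F1 at 1.02 TPM. Just outside it were CTD-3138B18.6 at 0.998, CMB9-94B1.2 at 0.993 and FAM215B at 0.993 TPM. Members at 10 TPM or more numbered 12.

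The member with the highest TPM, AC068580.5, lies in intron 1 of CTSD, the gene of the lysosomal aspartic protease cathepsin D, 43 bases from the nearest exon. It stood at 75.0 and 73.0 TPM in the controls and at 83.4 and 68.8 TPM in the UCK2 shRNA libraries, in the order of replicates 1 and 2, which holds for all values by library below. Whether groups overlap is said of the values as deposited, and of scaled values only where named. Its host stood at 660 and 742 TPM against 503 and 441.5 TPM. The member's groups overlap, whereas both UCK2 shRNA libraries are lower for the host. After scaling the member's UCK2 shRNA libraries are both higher than the controls. RP11-417L19.6, in intron 3 of PUS1, a pseudouridine synthase of tRNA, was at 62.8 and 58.8 against 66.7 and 59.7 TPM, and PUS1 was at 87.3 and 90.7 against 65.3 and 63.8 TPM. The member thus reached 80.8% of its host on the mean over libraries, and its groups overlap too, though not after scaling. Neither member had an adjusted p under 0.9 on either scale (limma).

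SNHG3, a host of small nucleolar RNAs inside the span of RCC1, the nucleotide exchange factor of Ran, stood at 37.9 and 38.4 against 30.7 and 44.2 TPM. RP11-589N15.2, in intron 8 of CTSB, the gene of the lysosomal cysteine protease cathepsin B, stood at 28.97 and 37.23 against 32.4 and 27.6 TPM. Both have overlapping groups. RP4-784A16.3, in intron 2 of LRP8, a receptor of reelin and apolipoprotein E, spread widely between the replicates of each group, at 10.6 and 1.43 against 22.8 and 8.78 TPM (overlapping as deposited and not after scaling), while LRP8 stood at 75.1 and 58.0 against 57.0 and 53.8 TPM. LL22NC03-N14H11.1, on chromosome 22 and without a host here, stood at 22.3 and 12.4 against 15.6 and 18.3 TPM.

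**Figure D1:**
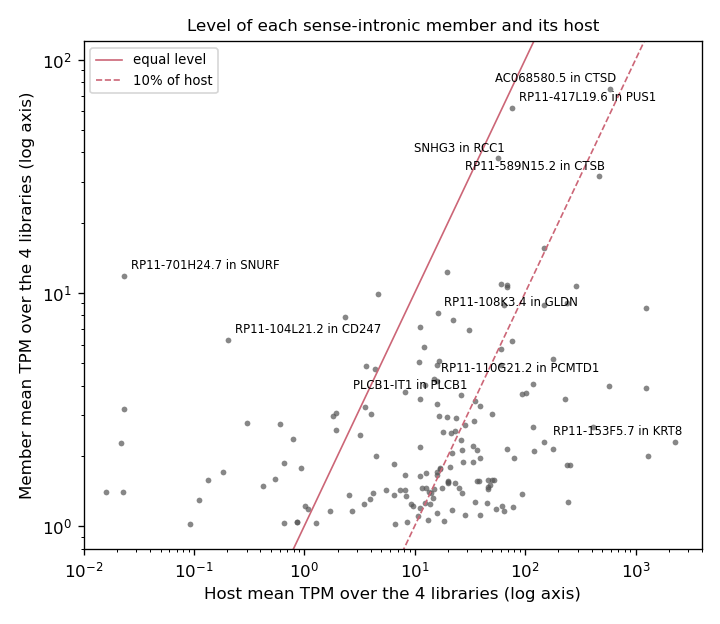
Mean TPM of each member over the 4 libraries (y, log axis) against the mean TPM of its host (x, log axis), 1 point per pair, with lines at equal level and at 10% of the host. Most points lie under the line of equal level, and the 29 above it are mainly pairs whose host is near 0.

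TPM is a level per length, so a member can be set against its host. Over the means of the 4 libraries the median member stood at 11.4% of its host, 73 of 167 stood below 10%, and 29 stood above their host. Only 9 of those 29 had a host of at least 1 TPM. The lowest ratios were those in highly expressed genes. RP11-153F5.7 reached 0.1005% of KRT8, an epithelial keratin, ENO1-IT1 0.153% of ENO1, the glycolytic enolase, and RP11-649A18.4 0.312% of HN1. The highest ratios were those of pairs whose host row was almost empty. RP11-701H24.7 stood at 20.97 and 3.52 against 12.9 and 9.92 TPM within SNURF, a short coding gene of the imprinted SNRPN locus, which was listed at 0 in every library but UCK2 shRNA replicate 1, at 0.0933 TPM. Reads of that locus may be shared with SNRPN, whose transcripts span the same ground. CTD-2538G9.6 stood at 2.39 and 0.777 against 1.83 and 4.07 TPM in NWD1, whose highest library was 0.0388 TPM. Across the 167 pairs the level of member and host, as log2(mean TPM + 1), correlated with a Pearson r of 0.32 (Spearman rho 0.31). Pairs share libraries and some share a host, so this is a description.

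Between the groups, the set stood higher in the UCK2 shRNA libraries than most genes did. Its hosts had a median difference near, and slightly below, that of all genes. The median log2 difference of the members was 0.18 as deposited and 0.34 scaled, beside -0.22 and -0.01 over all genes tested. Differences were above 0 for 121 of 194 members as deposited (62.4%, against 25.3% of all genes) and for 149 after scaling (76.8%, against 49.2%). The 152 hosts had medians of -0.26 and -0.04. In bulk RNA fewer cells of a kind and less RNA per cell cannot be told apart.

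**Figure D2:**
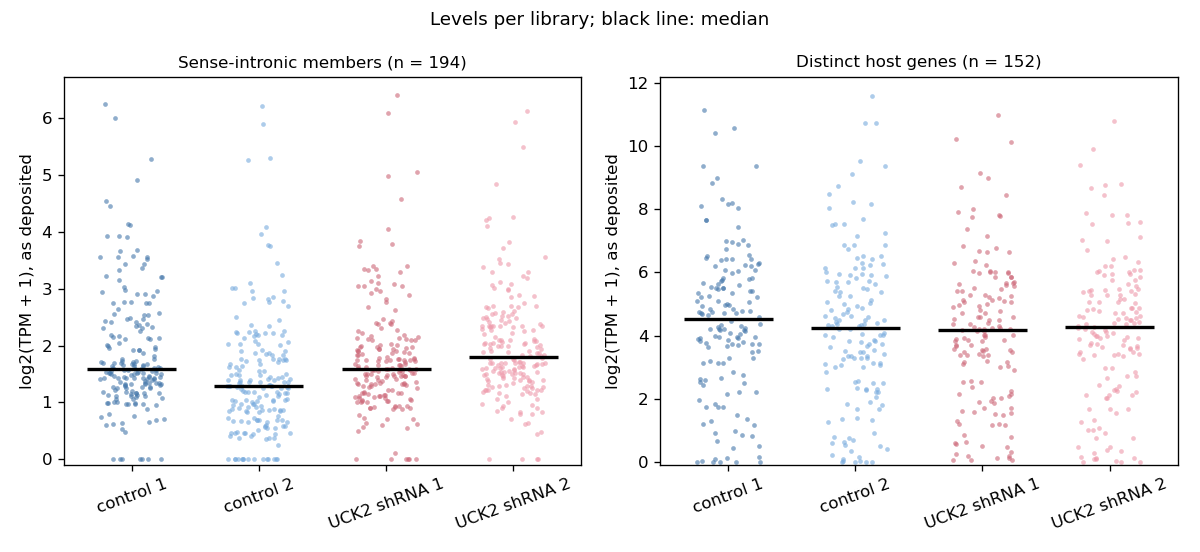
Level of every member (left) and of every distinct host (right) in each library, as log2(TPM + 1) as deposited, with 1 point per gene and a black line at the median. The members' median is lowest in control replicate 2, while the hosts' median is highest in control replicate 1 and lowest in UCK2 shRNA replicate 1.

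The size of that shift depended on single libraries. The members' median level was 2.003 TPM in control replicate 1, 1.43 TPM in control replicate 2, 2.02 TPM in UCK2 shRNA replicate 1 and 2.47 TPM in UCK2 shRNA replicate 2. Of the 194 members, 105 had their lowest TPM in control replicate 2 and 29 in control replicate 1, while 80 had their highest in UCK2 shRNA replicate 2 and 72 in control replicate 1. Control replicate 1 and UCK2 shRNA replicate 1 thus had almost the same median. Listed at 0 were 7, 15, 6 and 4 members in that order of libraries. Without control replicate 2 the members' median difference was -0.11 as deposited, beside -0.34 for all genes, and 0.14 scaled, beside -0.01. Without control replicate 1 it was 0.40 and 0.49, beside -0.10 and 0.00. Without UCK2 shRNA replicate 2 it was 0.05 and 0.23, beside -0.23 and 0.00, and without UCK2 shRNA replicate 1 it was 0.29 and 0.45, beside -0.20 and 0.00. The members therefore stayed above the median of all genes with any 1 library left out, but the size changed on both scales and the sign turned on the deposited one. The part of any property of these libraries in that shift was not tested.

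Other noncoding biotypes show part of the same pattern. After scaling, the median difference was 0.36 for 38 sense-overlapping genes, 0.15 for 997 long intergenic noncoding genes, 0.13 for 1175 antisense genes and -0.03 for 11624 protein-coding genes. Level matters to this comparison, as genes at 1 to 2 TPM of each of these biotypes stood higher than those at 5 TPM or more. At 1 to 2 TPM the scaled medians were 0.37 for 102 sense-intronic, 0.38 for 24 sense-overlapping, 0.20 for antisense, 0.16 for long intergenic and 0.10 for 904 protein-coding genes. At 2 to 5 TPM they were 0.34 for 62 sense-intronic, 0.73 for 8 sense-overlapping, 0.13 for antisense, 0.20 for long intergenic and 0.09 for protein-coding genes. At 5 TPM or more they were 0.22 for 30 sense-intronic members, 0.10 for 6 sense-overlapping, 0.03 for antisense, 0.06 for long intergenic and -0.05 for protein-coding genes. The deposited median of the members was 0.05 at 2 TPM or more and -0.02 at 5 TPM or more. Without control replicate 2 the scaled sense-intronic medians were 0.16 at 1 to 2 TPM and 0.04 at 5 TPM or more. In the same order they were 0.29 and 0.11 for sense-overlapping and 0.06 and -0.03 for protein-coding genes. Antisense genes had 0.12 and -0.01, and long intergenic genes 0.12 and 0.03. The members thus stood only slightly above these last 2 biotypes without that library. These are descriptions with no test.

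**Figure D3:**
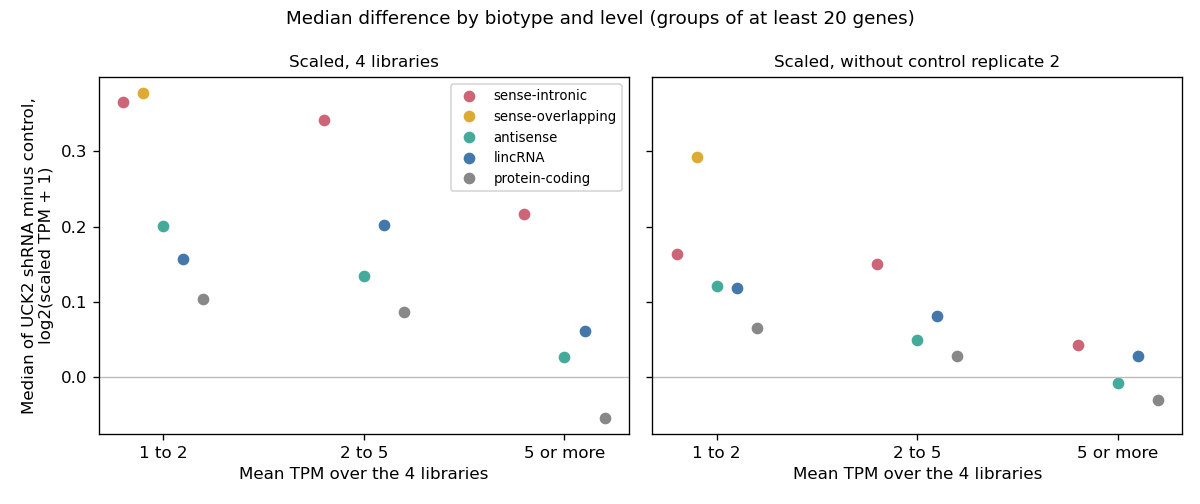
Median log2 difference after scaling, UCK2 shRNA minus control on log2(TPM + 1), of each biotype by band of mean TPM, with all libraries and without control replicate 2. Sense-intronic rows at 1 to 2 TPM go from 0.37 to 0.16 without that library.

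Gene by gene, the test across all genes called few members. As deposited, limma called 0 of 194 members at an adjusted p under 0.05 in either direction, where the background was 0% of genes tested (0 of 14038). The smallest adjusted p of a member was 0.151. At an unadjusted p under 0.05, 18 members were higher and 4 were lower, beside 1.38% and 14.0% of genes tested. After scaling, 2 members were called higher and 0 lower, where 0.0641% of genes tested were called higher (9 genes) and 0% lower, and unadjusted 29 members were higher and 4 lower, beside 3.97% and 1.42%. The groups did not overlap for 74 members higher and 12 lower after scaling (38.1% and 6.19%), against a background of 16.0% and 15.5%. As deposited they did not overlap for 46 higher and 21 lower (23.7% and 10.8%), against 5.46% and 44.4%. The deposited counts depended on single controls, with 14 members called without control replicate 1, where 2.49% of genes tested were called (350), and 7 without control replicate 2, where 0.378% were called (53). The filter on the mean bears on the calls, since 4 members listed at 0 in both controls entered only through the UCK2 shRNA libraries and 1 listed at 0 in both UCK2 shRNA libraries only through the controls, so these had to differ. Other members whose mean in either group is below 1 TPM likewise passed only through the other group. CMB9-94B1.2, just under the threshold, has the same form, with 0 listed for both controls and 2.17 and 1.80 TPM with UCK2 shRNA.

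The 2 members called after scaling were RP11-110G21.2 and PLCB1-IT1. RP11-110G21.2 (chr8:51895957-51896374, minus strand) lies in intron 1 of PCMTD1, whose protein has a domain of isoaspartate methyltransferases. Both controls list it at 0, and the UCK2 shRNA libraries reached 7.27 and 9.79 TPM. PCMTD1 stood at 19.0 and 7.74 against 13.6 and 19.7 TPM, with groups that overlap. PLCB1-IT1 (chr20:8248704-8256918, plus strand) lies in intron 2 of PLCB1, the gene of phospholipase C beta 1, an intron of 221010 bases. Both controls list it at 0 and the UCK2 shRNA libraries reached 6.42 and 8.11 TPM, while PLCB1 stood at 30.4 and 21.4 against 25.4 and 27.7 TPM. The groups of PLCB1 overlap as deposited, while after scaling both UCK2 shRNA libraries of PLCB1 are higher.

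The adjusted p (limma, Benjamini-Hochberg over 14038 genes) was 0.0126 for each of these members after scaling and 0.151 for each as deposited. Both entered the set only through the UCK2 shRNA libraries, so the filter fixed that their groups differ, and these p-values are given as values and support nothing further. After scaling, leaving out UCK2 shRNA replicate 1 took it to 0.201 for RP11-110G21.2 and 0.239 for PLCB1-IT1, and leaving out UCK2 shRNA replicate 2 to 0.375 and 0.397. In these fits 0% of the 14038 genes were called, so the loss is not particular to these members. No fold is given, since a value listed at 0 in a table without counts has no known floor.

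**Figure D4:**
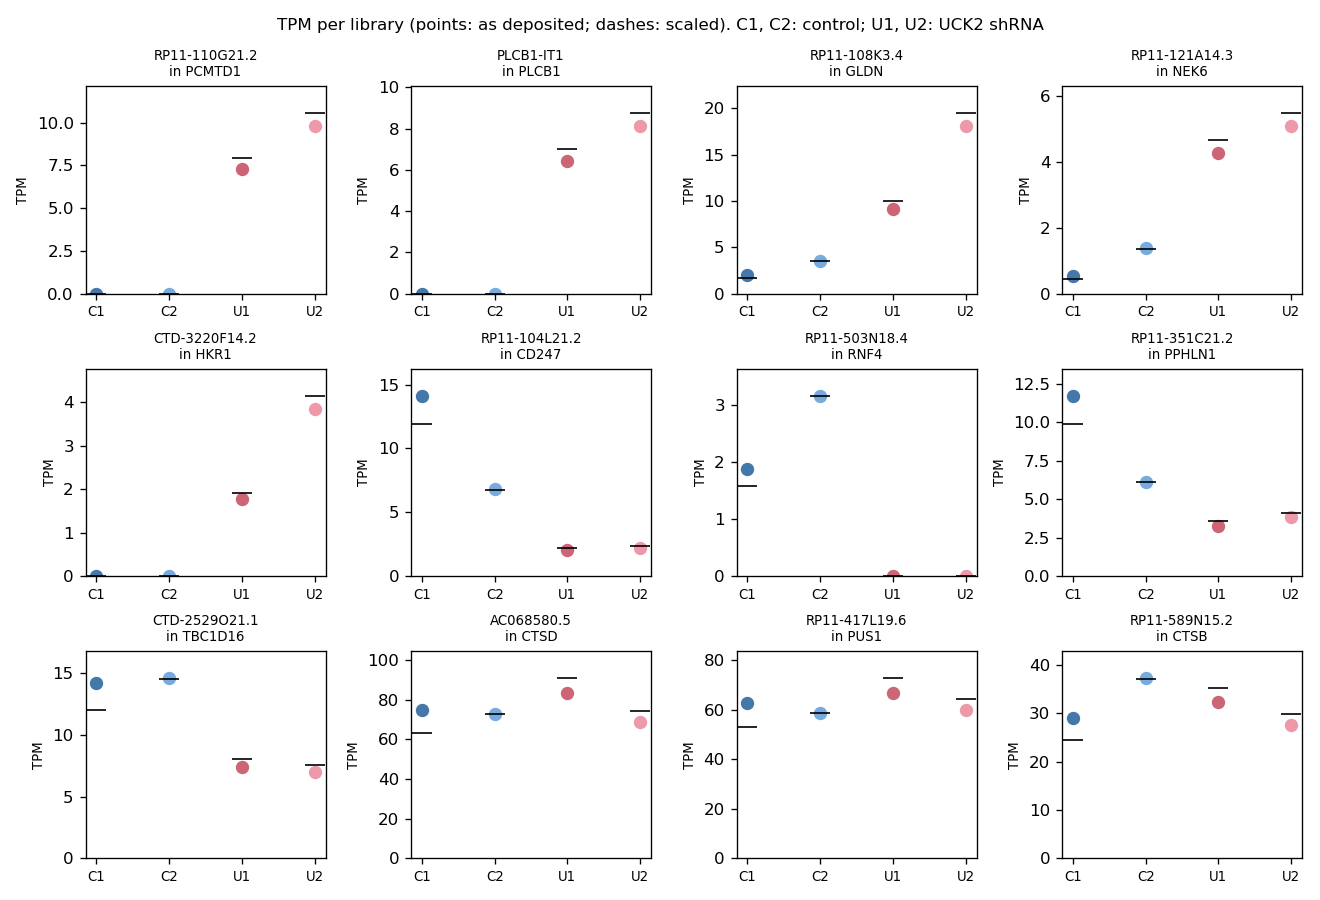
TPM of 12 members by library, with points for values as deposited (controls C1 and C2 in blue, UCK2 shRNA U1 and U2 in red), dashes for values after scaling and a y axis of its own for each member. RP11-110G21.2 and PLCB1-IT1 are listed at 0 in both controls, and the 3 members at the bottom right differ little between libraries beside the others.

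Among members that did not pass the adjusted threshold on either scale, the smallest p-values after scaling belonged to RP11-108K3.4 and RP11-104L21.2. RP11-108K3.4, in intron 1 of GLDN, which encodes gliomedin, a protein of the nodes of Ranvier, stood at 2.02 and 3.52 against 9.13 and 18.1 TPM. GLDN stood at 17.6 and 15.8 against 13.35 and 18.03 TPM. The groups of the member do not overlap and those of the host do. In UCK2 shRNA replicate 2 the member reached the level of its host. The member's log2 difference was 1.91 ± 0.38 (SE) as deposited with an adjusted p of 0.294 (limma), and 2.10 after scaling with an adjusted p of 0.185.

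Several scarcer members were also higher in both UCK2 shRNA libraries. RP11-44N11.1, in intron 1 of ZHX2, a transcriptional repressor known in liver for silencing AFP, stood at 1.12 and 0.429 against 3.37 and 5.35 TPM, with ZHX2 at 2.34 and 1.60 against 1.82 and 1.93 TPM. RP11-121A14.3, in intron 1 of the mitotic kinase gene NEK6, stood at 0.540 and 1.38 against 4.28 and 5.09 TPM, with NEK6 at 39.4 and 40.8 against 33.0 and 25.2 TPM. The NEK6 pair differs in direction, with the member higher and the host lower in both UCK2 shRNA libraries, though the host's groups overlap after scaling. CTD-3220F14.2, in intron 4 of the zinc finger gene HKR1, had 0 listed for both controls and reached 1.76 and 3.85 TPM with UCK2 shRNA, with HKR1 at 14.7 and 10.8 against 13.7 and 14.7 TPM. RP11-365O16.3, on chromosome 1 and without a host, stood at 0.690 and 0.292 against 2.998 and 3.20 TPM. All 4 have groups that do not overlap and an adjusted p of 0.294 as deposited and 0.215 after scaling (limma). The controls average below 1 TPM in all 4, so these members passed the filter only through the UCK2 shRNA libraries. Their separation and p-values are therefore given as values and support nothing further.

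Other members among the smallest p-values had the same form. LA16c-390E6.3, in intron 1 of CLCN7, a lysosomal chloride transporter, stood at 0.974 and 0.818 against 2.55 and 4.196 TPM. RP11-983P16.2, in intron 1 of EIF4B, a translation initiation factor, stood at 0.641 and 0.198 against 2.12 and 2.09 TPM under a host at 276 and 263 against 223 and 226 TPM. RP11-140H17.2, in intron 3 of NFAT5, the transcription factor of the response to hypertonicity, stood at 1.08 and 0.303 against 1.93 and 2.39 TPM. In all 3 the UCK2 shRNA libraries were higher. Their adjusted p was 0.294, 0.294 and 0.304 as deposited, and 0.404, 0.518 and 0.757 after scaling (limma). RP11-972P1.10, in intron 2 of RILPL1, rested mainly on 1 library, with 0 listed in both controls and 1.16 and 5.43 TPM in the UCK2 shRNA libraries. RP11-785H5.2, in the span of the bitter taste receptor gene TAS2R14, was listed at 0 in control replicate 1 and stood at 0.833 TPM in control replicate 2, against 1.96 and 4.30 TPM, and it overlaps an exon of SMIM10L1 on the opposite strand. For each of these members the controls average below 1 TPM, so the same limit of the filter holds for its groups and p-value.

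Of the members that were lower in the UCK2 shRNA libraries, 4 had an unadjusted p under 0.05 on both scales. RP11-104L21.2 (chr1:167457383-167458661, minus strand) lies in intron 1 of CD247, the zeta chain of the T cell receptor complex. It stood at 14.1 and 6.79 against 2.01 and 2.17 TPM, while CD247 did not pass 0.447 TPM in any library. Its groups do not overlap, and the host row is almost empty beside it. The log2 difference was -1.81 ± 0.36 (SE) as deposited with an adjusted p of 0.294 (limma), and -1.62 after scaling with an adjusted p of 0.215. RP11-503N18.4, in intron 1 of RNF4, a ubiquitin ligase that recognises SUMO chains, stood at 1.88 and 3.16 TPM in the controls and was listed at 0 in both UCK2 shRNA libraries, with RNF4 at 54.6 and 55.2 against 35.9 and 35.1 TPM. Here member and host were both lower, but the member passed the filter only through the controls.

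RP11-351C21.2, in intron 3 of PPHLN1, which encodes the HUSH complex subunit periphilin, stood at 11.7 and 6.13 against 3.26 and 3.83 TPM, with PPHLN1 at 90.4 and 69.9 against 63.3 and 79.2 TPM. CTD-2529O21.1, in intron 3 of TBC1D16, a GTPase activator of Rab proteins, stood at 14.27 and 14.62 against 7.43 and 7.02 TPM, with TBC1D16 at 75.5 and 76.3 against 61.8 and 59.2 TPM. The replicates of this last member lie close together and its groups are well apart. Its log2 difference was -0.91 ± 0.22 (SE) as deposited and -0.69 scaled, with an adjusted p of 0.294 and 0.772 (limma), and the host's differences were -0.32 and -0.09.

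Set pair by pair, members differed from their hosts more often upward than downward. The median of member minus host in log2 difference was 0.45 as deposited and 0.41 scaled, and it was above 0 in 129 and 124 of 167 pairs. A difference within a pair does not depend on the factor a library is scaled by except through the pseudocount of 1. Quantile normalization, which is no single factor, took the median to 0.24. Without control replicate 2 the median was 0.25 as deposited and 0.22 scaled. As a share of the host, the median member stood at 9.46% and 6.98% in the controls and at 12.9% and 15.19% in the UCK2 shRNA libraries, over the 161 to 167 pairs with a host above 0. The controls do not overlap the UCK2 shRNA libraries in this share, but an exact permutation test of 2 against 2 cannot go below 0.333, and none was run. Where the host was above 0, members above their host numbered 19 in each control and 29 and 26 in the UCK2 shRNA libraries. The pairs counted were 161 and 162 in the controls and 167 and 163 in the UCK2 shRNA libraries. Members over a host listed at 0 are left out, and such pairs differ in number between libraries. No difference between the groups is therefore read from these counts. Members are scarcer than their hosts, with a median mean TPM of 1.90 against 17.8 for the hosts over pairs. Over all genes tested, the scaled median difference was 0.15 at 1 to 2 TPM and -0.05 at 5 TPM or more. The part of level in the gap between members and hosts was not tested.

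**Figure D5:**
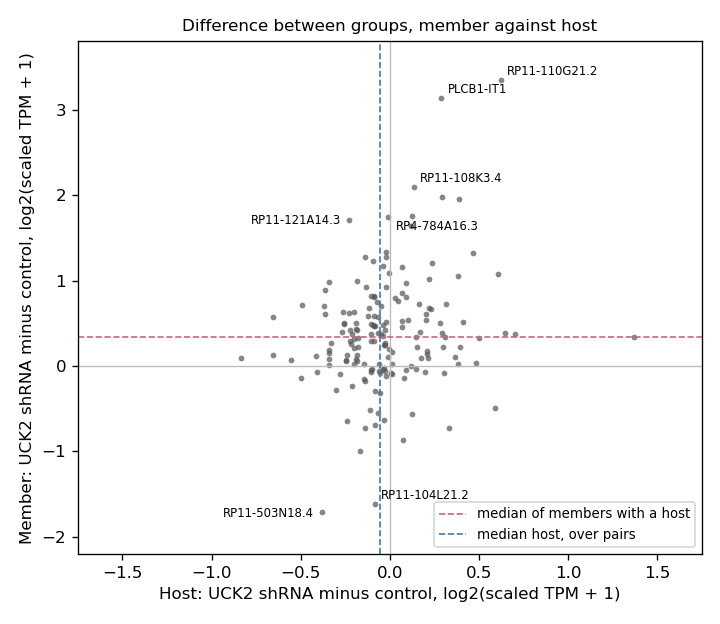
Log2 difference after scaling, UCK2 shRNA minus control on log2(TPM + 1), of each member (y) against that of its host (x), 1 point per pair, with dashed lines at the medians over pairs. The points spread farther along the members' axis than along the hosts', and RP11-110G21.2 and PLCB1-IT1 lie at the top.

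The difference of a member was only weakly correlated with that of its host. Across pairs the 2 differences correlated with a Pearson r of 0.22 and a Spearman rho of 0.18 after scaling, over 167 pairs that share the same 4 libraries. Of the 194 members 102 were under 2 TPM, and 20 pairs had a host below 1 TPM, where log2(TPM + 1) compresses differences. The part of these low levels in the weak correlation was not tested. Of the 135 hosts with a mean of at least 1 TPM, limma called 0 at an adjusted p under 0.05 on either scale, with smallest adjusted p-values of 0.294 and 0.625. Unadjusted, 1 host was higher and 28 were lower as deposited, and 5 were higher and 3 lower after scaling. The background was 1.38% higher and 14.0% lower as deposited, and 3.97% and 1.42% scaled. Of the 152 hosts, 33 had a difference above 0 as deposited and 58 after scaling, beside 25.3% and 49.2% of all genes tested. The hosts' shares were lower on both scales, but the 152 include hosts below 1 TPM, which the genes tested leave out.

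Where a host holds more than 1 member, the members can be compared over the same host. There are 10 such hosts with 25 members. CCDC92 has 6 members in intron 1 and stood at 18.2 and 17.6 against 14.5 and 13.4 TPM. RP11-214K3.18, the nearest to an exon at 815 bases, stood at 9.09 and 1.27 against 2.03 and 4.38 TPM. RP11-214K3.22 stood at 7.17 and 2.41 against 3.86 and 6.24 TPM, and RP11-214K3.23, the farthest at 11285 bases, at 1.99 and 0.374 against 2.60 and 1.83 TPM. All 6 had their lowest TPM in control replicate 2, where CCDC92 itself was near its level in control replicate 1. As the 6 share 1 intron they are not independent.

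KLC1, a light chain of the motor protein kinesin, has 3 members in intron 13 and stood at 174 and 179 against 108 and 128 TPM. RP11-73M18.8 stood at 16.6 and 16.1 against 13.4 and 16.29 TPM, with overlapping groups. RP11-73M18.7 stood at 10.7 and 7.59 against 8.39 and 8.79 TPM, also with overlapping groups, though not after scaling. RP11-73M18.6 was the only one of the 3 whose UCK2 shRNA libraries were both higher as deposited, at 1.21 and 1.53 against 2.94 and 3.45 TPM, with an adjusted p of 0.294 (limma) as deposited and 0.740 after scaling. Differences between these 3 members were not tested.

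In HM13, the gene of signal peptide peptidase, RP3-324O17.7 stood at 0.580 and 1.48 against 2.31 and 2.96 TPM, and HM13-IT1 at 11.9 and 6.83 against 6.58 and 10.8 TPM. Only the first has groups that do not overlap. In KAT8, an acetyltransferase of histone H4, RP11-196G11.5 stood at 16.32 and 9.98 against 12.5 and 10.5 TPM, and KAT8 at 24.1 and 21.5 against 17.5 and 14.7 TPM. In HN1, whose own TPM was 1524 and 1707 against 1113 and 675 TPM, RP11-649A18.5 stood at 10.8 and 7.05 against 9.50 and 7.05 TPM. RP11-649A18.4, which overlaps an exon on the opposite strand, stood at 3.95 and 2.62 against 4.52 and 4.54 TPM, with groups that do not overlap. None of these hosts had a member called by the adjusted test on either scale.

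The genes that remove or cut short such RNA were read from a list of 41 genes, all of which were tested. It holds the nuclear exosome and its cofactors, the debranching enzyme, U1 snRNP proteins, the cleavage and polyadenylation complex and elongation kinases. limma called 0 of 41 at an adjusted p under 0.05 on either scale, with smallest adjusted p-values of 0.294 and 0.853. Unadjusted, 0 were higher and 8 lower as deposited, and 1 was higher and 1 lower after scaling, beside the background of 1.38% and 14.0% as deposited and 3.97% and 1.42% scaled. The list's median difference was -0.27 as deposited and -0.04 scaled, beside -0.22 and -0.01 for all genes. Without control replicate 1, 3 of the 41 were called as deposited, beside 2.49% of genes tested.

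By role, the U1 snRNP protein gene SNRNP70, whose particle recognises 5′ splice sites and protects against early polyadenylation, stood at 340 and 359 against 223 and 218 TPM. SNRPA, of the same particle, stood at 87.6 and 90.8 against 60.0 and 48.2 TPM. Both are lower in both UCK2 shRNA libraries, as were 44.4% of all genes as deposited. DBR1, the debranching enzyme of intron lariats, stood at 19.9 and 19.0 against 7.34 and 12.7 TPM, with a log2 difference of -0.94 ± 0.28 (SE) as deposited and -0.71 scaled, and it was the 1 gene of the list lower at an unadjusted p under 0.05 after scaling. Its adjusted p was 0.294 and 0.853 (limma). SKIV2L2, the helicase that feeds RNA to the nuclear exosome, was the 1 higher after scaling. It stood at 21.3 and 8.98 against 18.03 and 24.0 TPM, so its groups overlap as deposited, though not after scaling. The adjusted p of SKIV2L2 was 0.507 as deposited and 0.894 after scaling (limma). The exosome subunit EXOSC4 stood at 130 and 175 against 96.9 and 90.8 TPM, and the cleavage factor subunit NUDT21 at 76.0 and 69.6 against 49.2 and 43.9 TPM. The part of any of these genes in the members' levels was not tested.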

How the data were processed

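RNA of MHCC-97H cells was sequenced in 4 libraries, 2 per group, grouped by title. The deposited table holds TPM per gene with identifier, symbol, biotype and hg38 position, as made by the authors. Per the submitters' processing notes, TopHat2 2.0.14, HTSeq, DESeq, edgeR and hg38 were used, with no role stated. Depth cannot be read from TPM, so intervals for counting error are not given. Retina markers were read because the extraction protocol in the labels names retinas.

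Genes with a mean of at least 1 TPM were fitted as log2(TPM + 1) by lmFit and eBayes with trend (limma 3.58.1, R 4.3.3). Two-sided p-values were adjusted by Benjamini-Hochberg over these 14038, with a threshold of 0.05. This scale understates changes of scarce genes. The fit was also run on simulated independent normal values with added changes. That simulation held no values set at 0 and no differences between whole libraries, so it does not test the fit on those features. Exons and transcript sequences came from GENCODE release 29. Median-ratio factors were 1.19, 1.00, 0.918 and 0.928. Other alternatives were pseudocounts, filters, quantile normalization, equal totals, variance models, the replicate block and leaving out each library.

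The named members are those with the highest TPM, the smallest p-values, the extremes of the ratio to the host, those beside the threshold and those sharing a host. Members, lists and rules were chosen with earlier results of these data known.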

Additional observations from a re-analysis of the deposited data

How the results depend on the processing

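Among all genes tested, 0 were called as deposited, 9 after median-ratio scaling, 8 after quantile normalization, 39 with the replicate number as a block and 727 with the numbers crossed. Leaving out 1 library gave 0 to 350 genes as deposited (350 without control replicate 1 and 53 without control replicate 2) and 0 to 23 after scaling (23 and 18 without these controls). Of the members, 0 were called as deposited, 2 after scaling, 2 after quantile normalization, 5 with the replicate block and 13 with the crossed block. Leaving out 1 library gave 0 to 14 members as deposited and 0 to 2 after scaling. Where a group is left with 1 library, that library is assumed to vary like the other group. Leaving out 1 library gave 0 to 1 called hosts and 0 to 3 called genes of the RNA turnover list.

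The replicate numbers are not shown to pair the libraries. Deviations of replicate 1 from its group mean correlated at -0.21 between groups across 14038 genes, with only 2 pairs, so block and crossed block are given as counts only. The crossed pairing and the scaled fits without 1 library were chosen after seeing the data.

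The members' median difference ran from -0.11 to 0.40 with 1 library left out as deposited and from 0.14 to 0.49 after scaling. Member minus host had a median of 0.24 after quantile normalization, 0.25 to 0.56 with 1 library left out as deposited and 0.22 to 0.54 after scaling. UCK2 changed sign after quantile normalization (0.0592), with equal totals (0.0485) and without UCK2 shRNA replicate 2, within a range of -0.72 to 0.10 with 1 library left out. SNRPC changed sign after quantile normalization (0.0486) and with equal totals (0.0219), and CPSF4 after quantile normalization (0.0191). The cause of these changes was not tested.

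Of 418 values of 31 single genes under these settings, 389 kept their direction and side of the threshold, 23 passed it only under the alternative, and 6 changed sign. With 2 libraries per group and no counts, a member near 1 TPM cannot be told from one carried by few reads. Other pseudocounts, filters, variance models and equal totals left the number of called members at 0.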
